A study of Mus musculus with 9 samples.

Results

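The genes described here are 35 mouse genes of glycolysis and of the response to low oxygen, taken by gene symbol from a fixed list, out of 45321 annotated genes. They cover glucose uptake, every enzyme step from hexokinase to lactate dehydrogenase, lactate export, the entry of pyruvate into mitochondria with the kinases that restrain it, and Hif1a with 4 genes that hypoxia induces. All 35 had enough reads to be tested among 14040 genes. RNA was sequenced from CD4+ T cells taken from spleens of C57BL/6 mice, with no genetic change named, by a purification that leaves the wanted cells unlabelled. All cells received a 1 h pre-treatment, with DMSO, the solvent and vehicle, or with 12.5 µM compound 10, a small molecule described as a chemical inhibitor of the joint complex of the transcription factors NFAT and AP-1. They were then left without stimulus or given 10 nM PMA, a phorbol ester that activates protein kinase C, together with 1 µM ionomycin, a calcium ionophore, for 2 h. The 4 groups are unstimulated vehicle (DMSO_US, 2 libraries), unstimulated with compound 10 (Comp10_US, 2 libraries), stimulated vehicle (DMSO_PI, 2 libraries) and stimulated with compound 10 (Comp10_PI, 3 libraries). Whether the libraries within a group stem from different animals or different cultures is not labelled, nor are age and sex. The p-values therefore reflect no more than the variation among the libraries at hand, and part or all of it may be technical.

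Glycolysis turns glucose into pyruvate in the cytosol, and T cells raise it when they are activated. Pyruvate is then either reduced to lactate, which leaves the cell through monocarboxylate transporters, or carried into mitochondria, where pyruvate dehydrogenase oxidises it unless pyruvate dehydrogenase kinases switch that enzyme off. Hif1a encodes the oxygen-regulated subunit of the transcription factor HIF-1, which pairs with the product of Arnt, binds DNA and induces many of the same glycolytic genes.

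Library totals ran from 10669821 to 21852830 estimated counts. Ribosomal RNA genes took between 9.15% and 33.45% of a library, and the highest shares among vehicle libraries were those of DMSO_US 2 (33.45%) and DMSO_PI 2 (19.4%). All 12 genes of a CD4 T cell identity list were tested, and their summed level was 1214 to 3625 CPM (counts scaled to library size). Summed markers stayed at or below 7.31 CPM for CD8 T cells, 64.9 for B cells, 10.8 for monocytes, macrophages and dendritic cells, 7.57 for neutrophils, 32.3 for natural killer cells and 24.7 for red cells and platelets. Of the other cell types' defining markers, Fcgr1 was at 0 in every library. Natural killer cell markers moved with compound 10 and with stimulation. Their sum went from 8.77 and 11.8 CPM to 18.3 and 19.7 in unstimulated cells. In stimulated cells it went from 19.8 and 21.8 to between 22.5 and 32.3. There 4 of 7 tested markers (Klrb1c, Gzma, Prf1 and Klrd1) were called higher and 0 lower. Of the 7, 6 had a positive log2 fold change, and the lowest value was -1.09. With compound 10 in unstimulated cells 1 of the 7 was called higher and 0 lower. Stimulation in vehicle also gave 1 higher and 0 lower. Of the CD4 identity genes, 6 of 12 were called higher and 2 lower with compound 10 in stimulated cells, and 6 were called higher and 0 lower in unstimulated cells. Among all tested genes, compound 10 gave 11.7% higher and 11.4% lower in stimulated cells, and 4.44% higher and 2.90% lower in unstimulated cells. With stimulation 9 of the 12 CD4 identity genes were called higher and 0 lower in vehicle, with a median log2 fold change of 1.22. Under compound 10, 5 were called higher and 0 lower. Among all tested genes, stimulation gave 14.3% higher and 13.8% lower in vehicle, and 11.0% higher and 10.8% lower under compound 10. The summed level of the CD4 identity genes went from 1214 and 1343 CPM in unstimulated vehicle to 3625 and 2904 after stimulation. Under compound 10 it went from 2092 and 1886 to between 3305 and 3401. The part of these markers and of ribosomal RNA in the results below was not tested. Alternative fits without ribosomal RNA genes, or without the vehicle libraries richest in them, are given below.

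Stimulation in vehicle raised 18 of the 35 genes and lowered 3, where 28.1% of all tested genes were called in either direction (14.3% higher, 13.8% lower). The call was an adjusted p below 0.05 in edgeR's quasi-likelihood test with Benjamini-Hochberg adjustment over 14040 genes. The median log2 fold change was 0.63 for the 35 genes, -0.05 for all tested genes and 1.22 for the 12 CD4 identity genes. In cells that had received compound 10, stimulation raised 10 and lowered 2, where 21.8% of all genes were called (11.0% higher, 10.8% lower), and the median was 0.49 against 0.00. The set did not move one way with compound 10 itself. In stimulated cells 8 genes were higher and 8 were lower, where 23.0% of all genes were called (11.7% higher, 11.4% lower), and the median was -0.02. Under upper-quartile scaling that split was 10 higher and 6 lower. In unstimulated cells 3 were higher and none was lower, where 7.34% of all genes were called (4.44% higher, 2.90% lower), and the median was 0.26. There 12 of 35 had an unadjusted p below 0.05, and DESeq2 called 6 higher and none lower.

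The libraries of the 2 groups did not overlap for 26 of the 35 genes with compound 10 in stimulated cells, where 47.3% of all genes had separate groups. The same count was 20 of 35 in unstimulated cells (55.4% of all genes), 26 of 35 for stimulation in vehicle (63.3%) and 20 of 35 for stimulation under compound 10 (49.5%). Without the vehicle libraries richest in ribosomal RNA, DMSO_US 2 and DMSO_PI 2, a choice made after seeing the data, compound 10 in stimulated cells gave 2 higher and 4 lower genes and stimulation in vehicle 9 higher and 1 lower. With all libraries kept but ribosomal RNA and mitochondrially encoded genes removed, compound 10 in stimulated cells gave 8 higher and 8 lower, as in the main fit. On log2(TPM + 1) values with limma, where TPM is a transcript abundance corrected for length, 1 gene was higher and 1 lower with compound 10 in stimulated cells. These TPM values did not carry the scaling factors between libraries that the main fit used, which ran from 0.832 to 1.31. The same test called 5 higher and 1 lower with stimulation in vehicle, and 2 higher and 1 lower with stimulation under compound 10. On that scale the split of all genes for stimulation under compound 10 was 508 higher and 1252 lower, and the median of all genes was -0.28. The comparisons share libraries: the stimulated vehicle cells are the baseline for compound 10 in stimulated cells and the end point for stimulation in vehicle, so a gene's values under both are given side by side and are not independent.

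Calls also depended on other settings, apart from single libraries left out, which are named beside each gene. For compound 10 in stimulated cells, limma kept only Pgam1 and Pdk1 of the 16 calls. Leaving out the vehicle libraries richest in ribosomal RNA ended 10 (Slc2a1, Hk2, Aldoc, Pgam1, Eno1, Ldhb, Mpc2, Bnip3, Ankrd37 and Egln3, adjusted p 0.0570 to 0.232). Effective length as offset ended 6 (Slc2a1, Hk2, Aldoc, Bnip3, Ankrd37 and Egln3), a fit of only the groups compared 6 (Slc2a1, Aldoc, Ldha, Mpc2, Ankrd37 and Egln3) and a replicate block 6 (Aldoc, Ldha, Mpc2, Bnip3, Ankrd37 and Egln3). DESeq2 ended 3 (Aldoc, Ankrd37 and Egln3), no filter those and Bnip3, upper-quartile scaling Aldoc and Egln3, and median-of-ratios size factors Ankrd37. In unstimulated cells, Tpi1 was lost by limma, with effective length as offset, with median-of-ratios size factors and without the ribosomal-RNA-rich libraries, and Hk2 by limma, with the offset, with only the groups compared and with a replicate block.

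For stimulation in vehicle, limma ended 15 of 21 calls and kept Hk1, Pgam1, Ldha, Pdk2, Vegfa and Ankrd37. Leaving out the ribosomal-RNA-rich vehicle libraries ended 11 (Slc2a1, Pfkfb3, Aldoa, Pgk1, Ldhb, Slc16a1, Pdk1, Mpc2, Vegfa, Bnip3 and Egln3, adjusted p 0.0561 to 0.323). Effective length as offset ended 4 (Hk2, Pgk1, Ldhb and Pdk1), a replicate block 3 (Pgk1, Ldhb and Slc16a1), upper-quartile scaling Pgk1 and Ldhb, and protein-coding transcripts only Pfkfb3. For stimulation under compound 10, limma ended 9 of 12 calls and kept Pgam1, Pdk2 and Ankrd37. Pfkfb4 was also lost with no filter, DESeq2, the offset, protein-coding transcripts only, a replicate block and without the ribosomal-RNA-rich libraries, Slc16a3 with no filter, the offset and a replicate block, and Hk2 with the offset. Which groups overlap is stated below for CPM unless TPM is named. As TPM, some groups that were separate as CPM overlapped. Unstimulated vehicle and stimulated compound 10 libraries did so for Hk1, Pfkm, Eno1, Tpi1 and Vegfa. The vehicle groups of both states did so for Pfkfb4, Pkm, Ldhb and Gapdh, and both unstimulated groups for Bnip3, Vegfa and Gapdh. Both compound 10 groups overlapped for Pkm and Slc16a3, both stimulated groups for Pdk2, and compound 10 alone and stimulated vehicle for Mpc2.

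**Figure D1:**
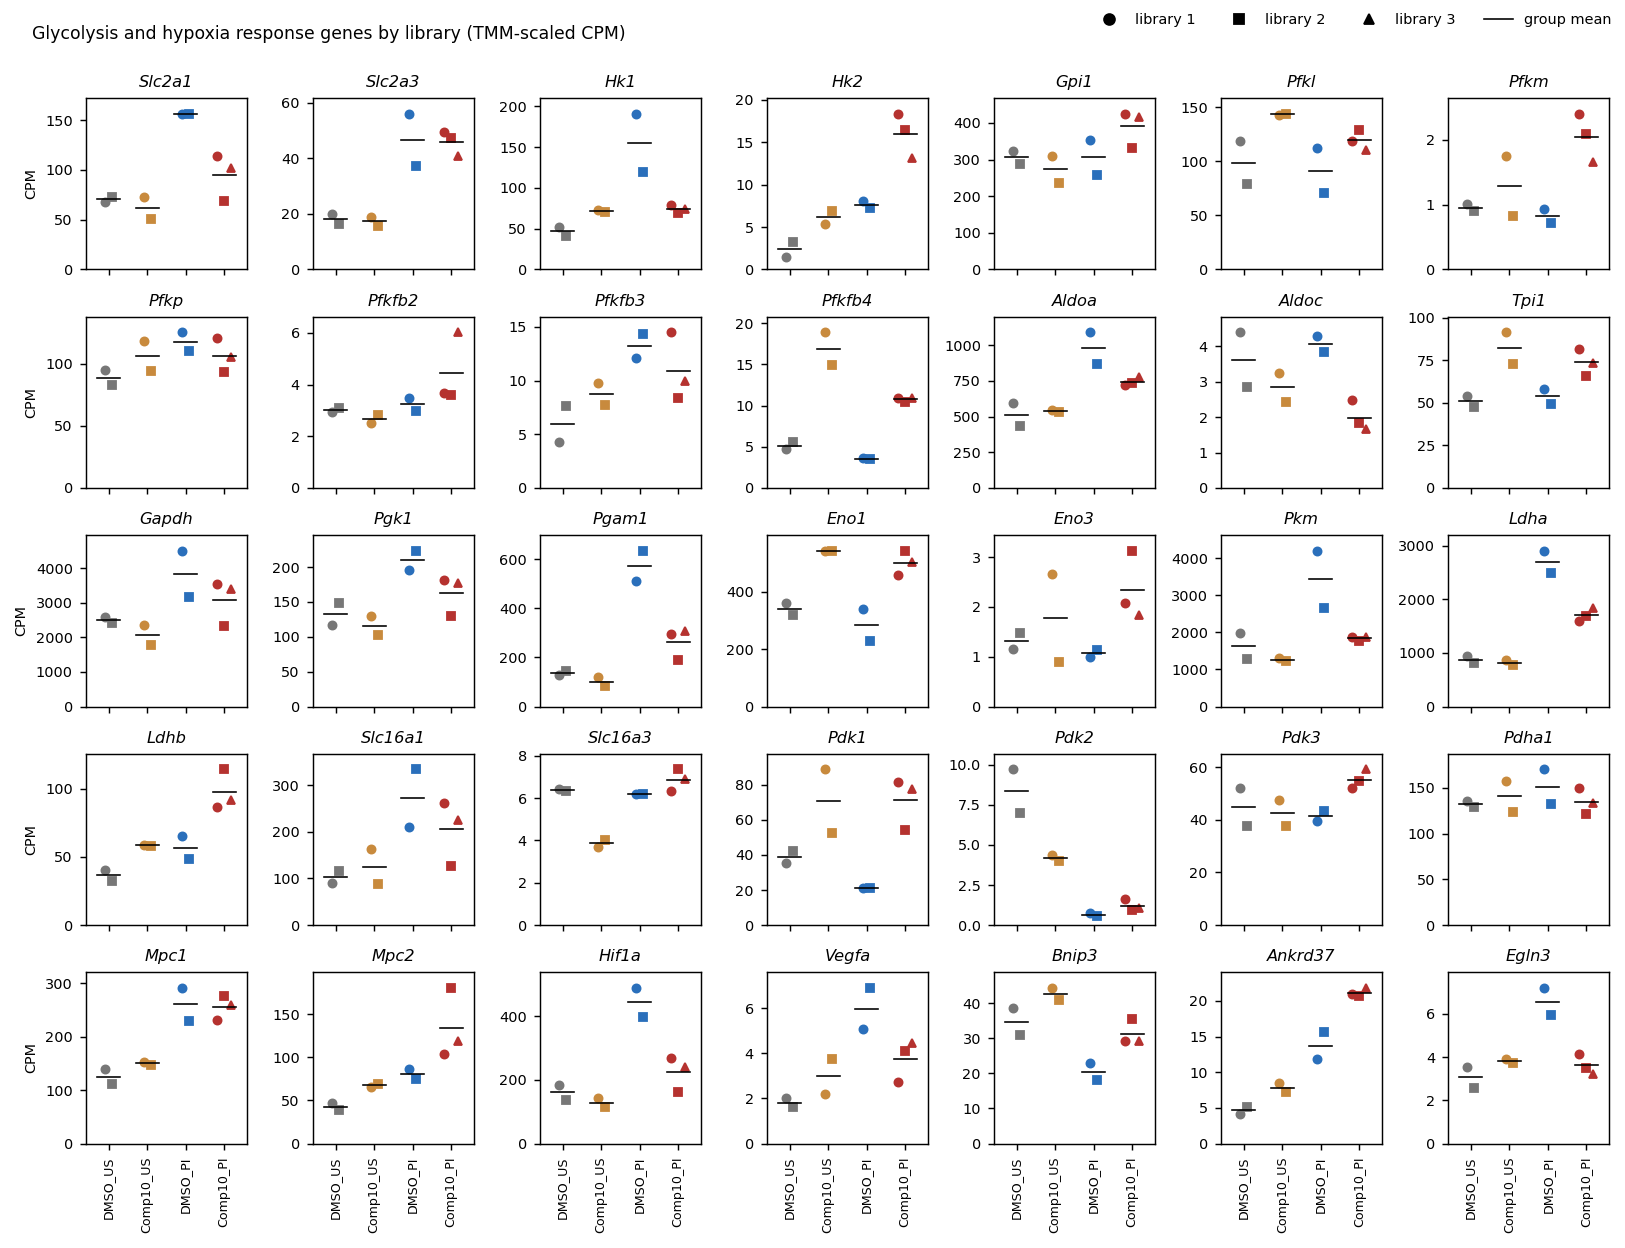
Level of each of the 35 genes in every library, as CPM on a linear axis from 0; a point is 1 library (circle, square and triangle for library 1, 2 and 3) and the bar is the group mean. Ldha, Pgam1 and Pkm are highest in the stimulated vehicle libraries, while Hk2, Ldhb, Mpc2 and Ankrd37 are highest in the stimulated libraries with compound 10.

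Of the glucose transporters, only Slc2a1 was called with compound 10 after stimulation, and the pair was not tested for a difference between the genes. Slc2a1, which encodes the main glucose transporter of activated T cells, stood at 67.4 and 73.2 CPM in unstimulated vehicle, 72.8 and 51.2 with compound 10 alone, 156 and 156 after stimulation in vehicle and 114, 68.4 and 102 after stimulation under compound 10. All 3 stimulated libraries with compound 10 lay below both stimulated vehicle libraries, and 1 of them lay inside the range of unstimulated cells. It rose with stimulation in vehicle (log2 fold change 1.15 ± 0.25 SE, adjusted p 0.00418) and was lower with compound 10 after stimulation (-0.72 ± 0.22, adjusted p 0.0321). The first call was lost by limma (adjusted p 0.0621) and without the vehicle libraries richest in ribosomal RNA (adjusted p 0.0790). The last call was lost without DMSO_PI 1, DMSO_PI 2, Comp10_PI 2 or Comp10_PI 3 (adjusted p 0.0505 to 0.119). Slc2a3, a high-affinity glucose transporter, stood at 20.1 and 16.3 CPM in unstimulated vehicle, 18.9 and 15.7 with compound 10 alone, 56.1 and 37.2 after stimulation in vehicle and 49.6, 47.4 and 40.8 after stimulation under compound 10. Both stimulated groups lay above both unstimulated groups and overlapped each other. Stimulation raised Slc2a3 by a log2 fold change of 1.36 ± 0.23 in vehicle (adjusted p 0.00101) and 1.41 ± 0.22 under compound 10 (adjusted p 0.000685), and its difference with compound 10 in stimulated cells was -0.02 with a 95% interval of -0.47 to 0.42. Slc2a3 made up 19.6% and 12.8% of the TPM of the pair in the stimulated vehicle libraries, and 22.3%, 34.3% and 21.7% in stimulated cells with compound 10. In bulk RNA, fewer cells of a type and less RNA per cell cannot be told apart, here and in all results that follow.

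The hexokinases, which trap glucose in the cell by phosphorylation, moved in opposite directions with compound 10 in stimulated cells. Hk1 (chr10:62268855-62379908, minus strand, GRCm38) stood at 52.4 and 41.6 CPM in unstimulated vehicle and 73.3 and 70 with compound 10 alone. After stimulation it stood at 191 and 119 CPM in vehicle and 79.4, 69.6 and 74.1 with compound 10, so that the compound 10 libraries of both states overlapped while the vehicle libraries did not. Its rise in vehicle was 1.72 ± 0.23 (adjusted p 0.000184), and its difference between states under compound 10 was 0.05 with a 95% interval of -0.39 to 0.50. With compound 10, Hk1 fell in stimulated cells (-1.06 ± 0.20, adjusted p 0.00263) and stood at 0.61 ± 0.23 in unstimulated cells (adjusted p 0.125). Hk1 was the only member whose compound 10 effect differed between the states by the interaction test (-1.67 ± 0.30, adjusted p 0.0248), where 1.03% of all genes were called (0.420% higher, 0.605% lower). That call was lost without DMSO_US 1, DMSO_US 2, Comp10_US 1, Comp10_US 2, DMSO_PI 1 or Comp10_PI 3 (adjusted p 0.0652 to 0.123), in a fit with a replicate block (adjusted p 0.0534), without the ribosomal-RNA-rich vehicle libraries (adjusted p 0.0568) and by limma (adjusted p 0.359). None of the other 34 genes passed the interaction test, and 6 of the 35 had an unadjusted p below 0.05.

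Hk2 (chr6:82725025-82774454, minus strand), the inducible hexokinase, stood at 1.44 and 3.29 CPM in unstimulated vehicle and 5.39 and 6.87 with compound 10 alone. After stimulation it stood at 8.04 and 7.19 CPM in vehicle and 18.3, 16.5 and 13.2 with compound 10. On the CPM scale the 4 groups did not overlap, and both compound 10 groups stood above the vehicle group of the same state. As TPM, Hk2 stood at 0.658 and 1.66 in unstimulated vehicle, 0.960 and 4.30 with compound 10 alone, 2.54 and 1.07 after stimulation in vehicle and 5.54, 3.90 and 4.19 after stimulation under compound 10. On that scale the first 3 groups overlapped, and the last stood above both vehicle groups. Hk2 rose with compound 10 in stimulated cells (1.07 ± 0.30, adjusted p 0.0215) and in unstimulated cells (1.36 ± 0.35, adjusted p 0.0358), and with stimulation in vehicle (1.67 ± 0.35, adjusted p 0.00358) and under compound 10 (1.38 ± 0.30, adjusted p 0.00653). The first call was lost without DMSO_PI 1, DMSO_PI 2 or Comp10_PI 1 (adjusted p 0.0622 to 0.130), the second without DMSO_US 1, Comp10_US 1, Comp10_US 2 or Comp10_PI 3 (adjusted p 0.0536 to 0.223) and the last without Comp10_US 1 (adjusted p 0.0762). All 4 Hk2 calls were lost by limma and with effective length as offset. For stimulation in vehicle limma gave 0.36 (adjusted p 0.651) and the offset 0.74 (0.553), and for stimulation under compound 10 they gave 0.77 (0.265) and 1.26 (0.266). For compound 10 after stimulation they gave 1.02 (0.192) and 1.43 (0.203), and without stimulation 0.62 (0.614) and 0.91 (0.583). As a share of the TPM of both hexokinases, Hk2 held 5.45% and 3.93% in the stimulated vehicle libraries and 24.8%, 18.9% and 23.0% in stimulated cells with compound 10. In unstimulated cells the shares were uneven within a group, at 3.67% and 15.2% in vehicle and 4.77% and 17.1% with compound 10. A short non-coding Hk2 transcript held between 0% and 75.9% of Hk2 TPM, and with protein-coding transcripts alone the compound 10 difference in stimulated cells was 1.02 (adjusted p 0.0188). Gpi1, which interconverts glucose 6-phosphate and fructose 6-phosphate, passed no test, and its difference with compound 10 in stimulated cells was 0.35 (-0.11 to 0.82).

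The step committed to glycolysis, made by the phosphofructokinases, gave no call in any comparison. Pfkp and Pfkl held nearly all of its TPM, and muscle-type Pfkm held between 0.338% and 0.957%. With compound 10 in stimulated cells the differences were 0.38 for liver-type Pfkl (-0.10 to 0.87), -0.15 for platelet-type Pfkp (-0.53 to 0.24) and 1.29 for Pfkm (0.28 to 2.30, adjusted p 0.0641). Pfkm stood at 0.940 and 0.719 CPM in the stimulated vehicle libraries and 2.40, 2.08 and 1.66 with compound 10, and these libraries did not overlap.

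Pfkfb enzymes make and remove fructose 2,6-bisphosphate, the allosteric activator of phosphofructokinase, and Pfkfb4 had the highest log2 fold change of the 35 genes with compound 10 in unstimulated cells. Pfkfb4 (chr9:108991778-109032228, plus strand) stood at 4.68 and 5.55 CPM in unstimulated vehicle, 18.9 and 14.9 with compound 10 alone, 3.6 and 3.54 after stimulation in vehicle and 11.0, 10.5 and 10.9 after stimulation under compound 10. The 4 groups were all separate, and both compound 10 groups stood above both vehicle groups. The rise with compound 10 was 1.59 ± 0.23 in stimulated cells (adjusted p 0.000467) and 1.72 ± 0.24 in unstimulated cells (adjusted p 0.00151), and both calls were kept with each library left out in turn. The interaction term was -0.13 (-0.82 to 0.57). With protein-coding transcripts alone the differences were 2.91 (adjusted p 0.0147) and 2.04 (adjusted p 0.0963). Protein-coding transcripts held only 0.925% of Pfkfb4 TPM in DMSO_PI 2, against 32.2% to 56.0% in the other 8 libraries. Stimulation lowered Pfkfb4 under compound 10 (-0.65 ± 0.20, adjusted p 0.0399), a call lost without any library other than DMSO_PI 1 or DMSO_PI 2 (adjusted p 0.0556 to 0.339). Pfkfb3, the form with the strongest bias towards making the activator, stood at 4.32 and 7.68 CPM in unstimulated vehicle, 9.81 and 7.75 with compound 10 alone, 12.1 and 14.3 after stimulation in vehicle and 14.5, 8.34 and 9.95 after stimulation under compound 10, and the stimulated groups overlapped. It rose with stimulation in vehicle (1.13 ± 0.33, adjusted p 0.0221), a call lost without DMSO_US 1 or DMSO_PI 2 (adjusted p 0.106 to 0.187). Pfkfb2 passed no test and stood between 2.53 and 6.02 CPM. Within the trio, Pfkfb4 held 30.8% and 32.1% of TPM in the stimulated vehicle libraries and 53.1%, 55.3% and 50.4% in stimulated cells with compound 10, and Pfkfb3 held 50.8% and 55.3% against 32.3%, 32.6% and 27.9%.

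Of the 9 genes of lower glycolysis, 4 rose with stimulation in vehicle (Aldoa, Pgk1, Pgam1 and Pkm; 28.1% of all genes were called). With compound 10 in stimulated cells 1 was higher (Eno1) and 3 were lower (Aldoc, Pgam1 and Pkm; 23.0% of all genes were called). Pgam1 (chr19:41911923-41918660, plus strand), a phosphoglycerate mutase, stood at 127 and 143 CPM in unstimulated vehicle, 119 and 82.7 with compound 10 alone, 512 and 634 after stimulation in vehicle and 297, 188 and 307 after stimulation under compound 10. The 3 stimulated libraries with compound 10 lay between the unstimulated and the stimulated vehicle libraries, with no overlap. It rose with stimulation both in vehicle (2.08 ± 0.27, adjusted p 0.000171) and under compound 10 (1.39 ± 0.25, adjusted p 0.00212). With compound 10 it was lower in stimulated cells (-1.12 ± 0.24, adjusted p 0.00520), a call lost without DMSO_PI 2 (adjusted p 0.0512).

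Pkm, which encodes pyruvate kinase, the enzyme of the last step of glycolysis, stood at 1996 and 1277 CPM in unstimulated vehicle, 1300.4 and 1233 with compound 10 alone, 4205 and 2659 after stimulation in vehicle and 1864, 1771 and 1883 after stimulation under compound 10. The last 3 values lie inside the range of the unstimulated vehicle libraries and below both stimulated vehicle libraries. They also lie above both libraries with compound 10 alone, although stimulation under compound 10 gave no call for Pkm. Its rise in vehicle was 1.07 ± 0.28 (adjusted p 0.0130), lost without DMSO_US 2 or DMSO_PI 1 (adjusted p 0.113 to 0.128), and its difference with compound 10 in stimulated cells -0.90 ± 0.25 (adjusted p 0.0204), lost without DMSO_PI 1, Comp10_PI 1 or Comp10_PI 3 (adjusted p 0.0557 to 0.244). Eno1, the main enolase of these cells, took the opposite course, at 361 and 319.8 CPM in unstimulated vehicle, 541 and 543 with compound 10 alone, 342 and 227 after stimulation in vehicle and 460.3, 543 and 503 after stimulation under compound 10. Every compound 10 library stood above every vehicle library. The difference was 0.82 ± 0.21 in stimulated cells (adjusted p 0.0136), lost without DMSO_PI 2 (adjusted p 0.148), and 0.67 (0.18 to 1.16, adjusted p 0.0936) in unstimulated cells. Tpi1, triose phosphate isomerase, stood at 53.8 and 47.8 CPM in unstimulated vehicle, 91.4 and 72.8 with compound 10 alone, 58.4 and 49.3 after stimulation in vehicle and 81.8, 65.9 and 73.4 after stimulation under compound 10. Here too the compound 10 libraries were above all vehicle libraries. Tpi1 rose with compound 10 in unstimulated cells (0.69 ± 0.19, adjusted p 0.0494), a call lost without any library other than Comp10_PI 2 (adjusted p 0.0530 to 0.332), and stood at 0.45 (0.07 to 0.84) in stimulated cells.

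Aldoa, the main aldolase, rose with stimulation in vehicle (0.94 ± 0.22, adjusted p 0.00744), lost without DMSO_US 2 or DMSO_PI 1 (adjusted p 0.0590 to 0.0779), and Pgk1, phosphoglycerate kinase, rose there too (0.66 ± 0.22, adjusted p 0.0442), lost without any library other than Comp10_PI 2 (adjusted p 0.0504 to 0.268). With compound 10 in stimulated cells Aldoa stood at -0.40 (-0.83 to 0.03) and Pgk1 at -0.36 (-0.80 to 0.07). The minor aldolase Aldoc, with 4.28 and 3.84 CPM in the stimulated vehicle libraries and 2.48, 1.82 and 1.66 with compound 10, was called lower (-1.03 ± 0.34, adjusted p 0.0448), a call lost without any library other than Comp10_PI 1 (adjusted p 0.0527 to 0.177). Gapdh, glyceraldehyde phosphate dehydrogenase and often used as a reference gene, passed no test. Its values were 2605 and 2406 CPM in unstimulated vehicle, 2369 and 1771 with compound 10 alone, 4509 and 3186 after stimulation in vehicle and 3548, 2324 and 3399.8 after stimulation under compound 10. Both stimulated vehicle libraries lay above both unstimulated vehicle libraries, with a difference of 0.62 (0.01 to 1.23, adjusted p 0.125), and both libraries with compound 10 alone lay below unstimulated vehicle (-0.28, -0.88 to 0.33). The groups overlapped for compound 10 in stimulated cells (-0.32, -0.87 to 0.24). Muscle-type Eno3 stood between 0.886 and 3.13 CPM and passed no test.

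The lactate dehydrogenases, which interconvert pyruvate and lactate, also parted. Ldha (chr7:46841475-46855627, plus strand), the muscle-type subunit, stood at 935 and 804 CPM in unstimulated vehicle, 866 and 774 with compound 10 alone, 2909 and 2492 after stimulation in vehicle and 1603, 1697 and 1845 after stimulation under compound 10. Both stimulated groups stood above both unstimulated ones, and the stimulated compound 10 libraries lay below the stimulated vehicle libraries. Stimulation raised it in vehicle (1.63 ± 0.22, adjusted p 0.000196) and under compound 10 (1.06 ± 0.20, adjusted p 0.00271), the latter lost without Comp10_US 2 (adjusted p 0.0546). Ldha was lower with compound 10 in stimulated cells (-0.65 ± 0.19, adjusted p 0.0286), lost without Comp10_US 1, Comp10_US 2, DMSO_PI 1, DMSO_PI 2, Comp10_PI 1 or Comp10_PI 3 (adjusted p 0.0536 to 0.171).

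Ldhb, the heart-type subunit, stood at 40.6 and 32.4 CPM in unstimulated vehicle, 58.8 and 57.7 with compound 10 alone, 64.9 and 48.3 after stimulation in vehicle and 86.6, 114 and 91.6 after stimulation under compound 10. Its highest 3 libraries were the stimulated ones with compound 10. Ldhb rose with compound 10 in stimulated cells (0.78 ± 0.19, adjusted p 0.0121), lost without DMSO_PI 2 (adjusted p 0.129), and stood at 0.68 (0.22 to 1.14, adjusted p 0.0745) in unstimulated cells. It rose with stimulation in vehicle (0.63 ± 0.21, adjusted p 0.0412), lost without DMSO_US 1, DMSO_US 2, Comp10_US 1, Comp10_US 2, DMSO_PI 1 or Comp10_PI 3 (adjusted p 0.0603 to 0.276), and under compound 10 (0.74 ± 0.19, adjusted p 0.0169), lost without Comp10_US 1 or Comp10_US 2 (adjusted p 0.0976 to 0.116). Ldhb made up 2.71% and 2.37% of lactate dehydrogenase TPM in the stimulated vehicle libraries and 6.32%, 7.71% and 5.85% with compound 10. In unstimulated cells the share was 5.18% and 4.81% in vehicle and 7.87% and 8.54% with compound 10, so the compound 10 libraries held the larger share in both states.

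Of the lactate exporters, Slc16a1 (MCT1) rose with stimulation in vehicle (1.40 ± 0.40, adjusted p 0.0268), lost without DMSO_US 1, DMSO_US 2 or DMSO_PI 2 (adjusted p 0.0767 to 0.158), from 89.4 and 117 to 211 and 335 CPM. With compound 10 its values were 163 and 88.1 CPM in unstimulated and 263, 128 and 226 in stimulated cells, and these groups overlapped. Slc16a3 (MCT4) rose with stimulation under compound 10 (0.82 ± 0.24, adjusted p 0.0267), lost without Comp10_US 1, Comp10_US 2, Comp10_PI 2 or Comp10_PI 3 (adjusted p 0.0512 to 0.165), from 3.70 and 4.04 to 6.33, 7.36 and 6.90 CPM, while vehicle libraries stood at 6.41 and 6.32 and 6.21 and 6.17 CPM, in the same order of states.

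**Figure D2:**
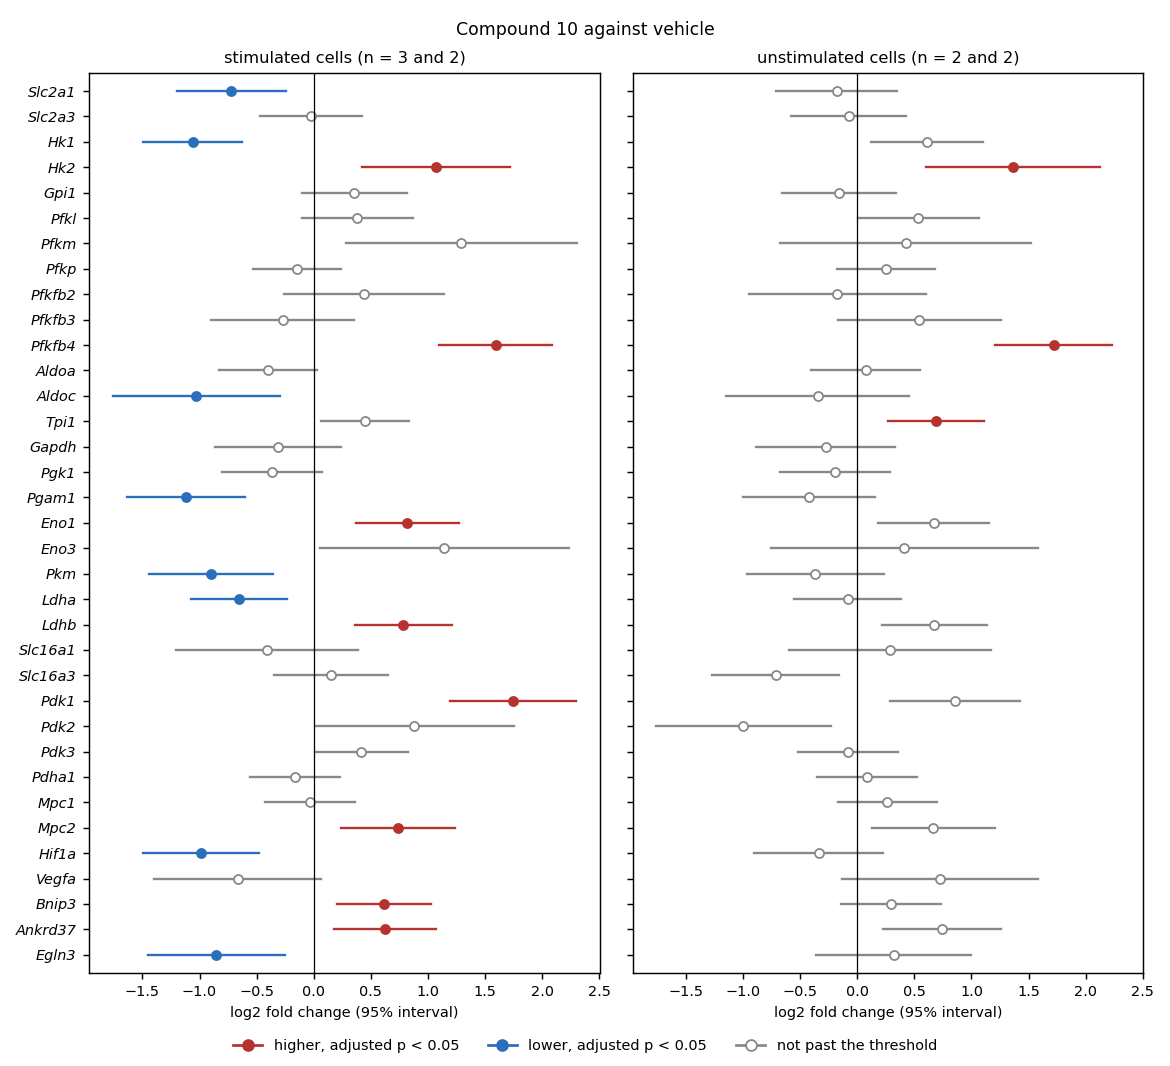
Log2 fold change with compound 10 against vehicle for each of the 35 genes in stimulated cells (left, 3 and 2 libraries) and unstimulated cells (right, 2 and 2 libraries), with 95% intervals from edgeR; filled points passed an adjusted p of 0.05. Hk2 and Pfkfb4 are called higher in both panels, and Pgam1, Hk1, Aldoc and Hif1a have the lowest values on the left.

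Among the genes of pyruvate entry into mitochondria, compound 10 raised Pdk1 and Mpc2 in stimulated cells and lowered none of the 6 (23.0% of all genes were called). Pdk1 (chr2:71873224-71903858, plus strand), a kinase that inhibits pyruvate dehydrogenase and a known HIF-1 target, stood at 35.5 and 42.5 CPM in unstimulated vehicle, 88.9 and 52.4 with compound 10 alone, 21.4 and 21.1 after stimulation in vehicle and 81.9, 54.3 and 77.6 after stimulation under compound 10. Every compound 10 library stood above every vehicle library, and the stimulated vehicle libraries were the lowest. The difference with compound 10 in stimulated cells was 1.74 ± 0.25 (adjusted p 0.000546), and among the 16 calls of that comparison Pdk1 alone was kept under every alternative run. In unstimulated cells it was 0.86 (0.29 to 1.43, adjusted p 0.0697). Stimulation in vehicle lowered Pdk1 (-0.88 ± 0.27, adjusted p 0.0271), lost without DMSO_US 1, DMSO_US 2, DMSO_PI 1 or DMSO_PI 2 (adjusted p 0.0511 to 0.155). Between 65.2% and 88.6% of Pdk1 TPM was assigned to non-coding transcripts of the gene. With the protein-coding transcript alone the compound 10 difference was 1.29 in stimulated cells (adjusted p 0.0040) and 0.30 in unstimulated cells (adjusted p 0.542).

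Pdk2, another of these kinases, was lowered most by stimulation of the 35 genes. It stood at 9.73 and 6.97 CPM in unstimulated vehicle, 4.35 and 3.99 with compound 10 alone, 0.731 and 0.540 after stimulation in vehicle and 1.60, 0.912 and 1.05 after stimulation under compound 10. The 4 groups were separate, with unstimulated vehicle highest and stimulated vehicle lowest. The fall was -3.69 ± 0.41 in vehicle (adjusted p 4.76e-05) and -1.81 ± 0.35 under compound 10 (adjusted p 0.00273). The interaction term was 1.88 (0.72 to 3.04, adjusted p 0.121), and the compound 10 differences were -1.0 (-1.77 to -0.23) in unstimulated and 0.88 (0.01 to 1.75) in stimulated cells, neither past the threshold. Pdk3 stood between 37.6 and 59.2 CPM and passed no test. Of the TPM of the 3 kinases, Pdk3 held 66.3% and 70.8% in stimulated vehicle, while Pdk1 held 31.3% and 28.2%. In stimulated cells with compound 10 Pdk1 held 57.6%, 45.8% and 52.0% of it.

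Mpc1 and Mpc2 encode the paired subunits of the mitochondrial pyruvate carrier. Both rose with stimulation in vehicle, Mpc1 by 1.06 ± 0.20 (adjusted p 0.00210) and Mpc2 by 0.92 ± 0.25 (adjusted p 0.0155), the latter lost without DMSO_US 2 or DMSO_PI 1 (adjusted p 0.0859 to 0.115). Both rose under compound 10 as well, Mpc1 by 0.76 ± 0.19 (adjusted p 0.0114), lost without Comp10_US 1 or Comp10_US 2 (adjusted p 0.0785 to 0.103), and Mpc2 by 1.00 ± 0.23 (adjusted p 0.00878), lost without Comp10_US 1 or Comp10_US 2 (adjusted p 0.0635 to 0.0720). With compound 10 itself only Mpc2 was called, and the pair was not tested for a difference between the genes. Mpc2 stood at 46.7 and 38.5 CPM in unstimulated vehicle, 66.1 and 68.7 with compound 10 alone, 86.7 and 74.4 after stimulation in vehicle and 103, 181 and 119 after stimulation under compound 10, each group clear of the others. Its rise with compound 10 in stimulated cells was 0.74 ± 0.23 (adjusted p 0.0346), lost without DMSO_PI 1, DMSO_PI 2 or Comp10_PI 2 (adjusted p 0.0769 to 0.202), whereas Mpc1 stood at -0.03 (-0.42 to 0.37). Pdha1, the catalytic alpha subunit of pyruvate dehydrogenase, passed no test, with a difference of -0.16 (-0.56 to 0.23) with compound 10 in stimulated cells.

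All 5 genes of the hypoxia group were called with stimulation in vehicle, 4 of them higher (28.1% of all genes were called), and 4 of 5 were called with compound 10 in stimulated cells, 2 in each direction (23.0% of all genes). Hif1a (chr12:73901375-73947530, plus strand) stood at 185 and 138 CPM in unstimulated vehicle, 142 and 114 with compound 10 alone, 489 and 399 after stimulation in vehicle and 269, 161 and 241 after stimulation under compound 10. The stimulated vehicle libraries stood apart above all others, and 1 stimulated library with compound 10 lay inside the unstimulated vehicle range. Hif1a rose with stimulation in vehicle (1.46 ± 0.26, adjusted p 0.00154) and under compound 10 (0.80 ± 0.24, adjusted p 0.0328), the latter lost without Comp10_US 1, Comp10_US 2, Comp10_PI 1 or Comp10_PI 3 (adjusted p 0.0823 to 0.247). Compound 10 lowered it in stimulated cells (-0.99 ± 0.23, adjusted p 0.00907), lost without DMSO_PI 1 (adjusted p 0.0798).

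Egln3 and Ankrd37, both induced by HIF-1, rose together with stimulation in vehicle but had opposite signs with compound 10 in stimulated cells. Egln3, which encodes a prolyl hydroxylase that marks HIF-1 alpha for destruction, stood at 3.53 and 2.58 CPM in unstimulated vehicle, 3.90 and 3.71 with compound 10 alone, 7.20 and 5.94 after stimulation in vehicle and 4.16, 3.52 and 3.23 after stimulation under compound 10. It rose with stimulation in vehicle (1.11 ± 0.31, adjusted p 0.0184), lost without DMSO_US 2 or DMSO_PI 1 (adjusted p 0.103 to 0.151), and was lower with compound 10 in stimulated cells (-0.85 ± 0.27, adjusted p 0.0416), lost without any of the 9 libraries (adjusted p 0.0505 to 0.219). Ankrd37, an ankyrin repeat protein gene, stood at 4.18 and 5.16 CPM in unstimulated vehicle, 8.44 and 7.25 with compound 10 alone, 11.8 and 15.6 after stimulation in vehicle and 20.9, 20.6 and 21.8 after stimulation under compound 10. Its 4 groups formed separate steps in that order. Stimulation raised it in vehicle (1.55 ± 0.24, adjusted p 0.000476) and under compound 10 (1.43 ± 0.21, adjusted p 0.00057), both under every alternative run. It was higher with compound 10 in stimulated cells (0.62 ± 0.21, adjusted p 0.0456), a call lost without any of the 9 libraries (adjusted p 0.0538 to 0.276).

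Bnip3, a mitophagy receptor gene, stood at 38.6 and 30.9 CPM in unstimulated vehicle, 44.4 and 40.8 with compound 10 alone, 22.8 and 18 after stimulation in vehicle and 29.2, 35.4 and 29.2 after stimulation under compound 10. The stimulated vehicle libraries were the lowest. It fell with stimulation in vehicle (-0.77 ± 0.20, adjusted p 0.0145), lost without DMSO_US 1 or DMSO_PI 2 (adjusted p 0.114 to 0.117), and was higher with compound 10 in stimulated cells (0.62 ± 0.19, adjusted p 0.0341), lost without Comp10_US 1, Comp10_US 2, DMSO_PI 2, Comp10_PI 2 or Comp10_PI 3 (adjusted p 0.0524 to 0.242). Vegfa, which encodes an angiogenic growth factor, rose with stimulation in vehicle (1.72 ± 0.39, adjusted p 0.00614), lost without DMSO_US 2 (adjusted p 0.0601). Its levels were 2.02 and 1.61 CPM in unstimulated vehicle, 2.21 and 3.76 with compound 10 alone, 5.06 and 6.89 after stimulation in vehicle and 2.72, 4.10 and 4.45 after stimulation under compound 10. The stimulated groups did not overlap, but the difference of -0.67 (-1.40 to 0.06) was not past the threshold.

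**Figure D3:**
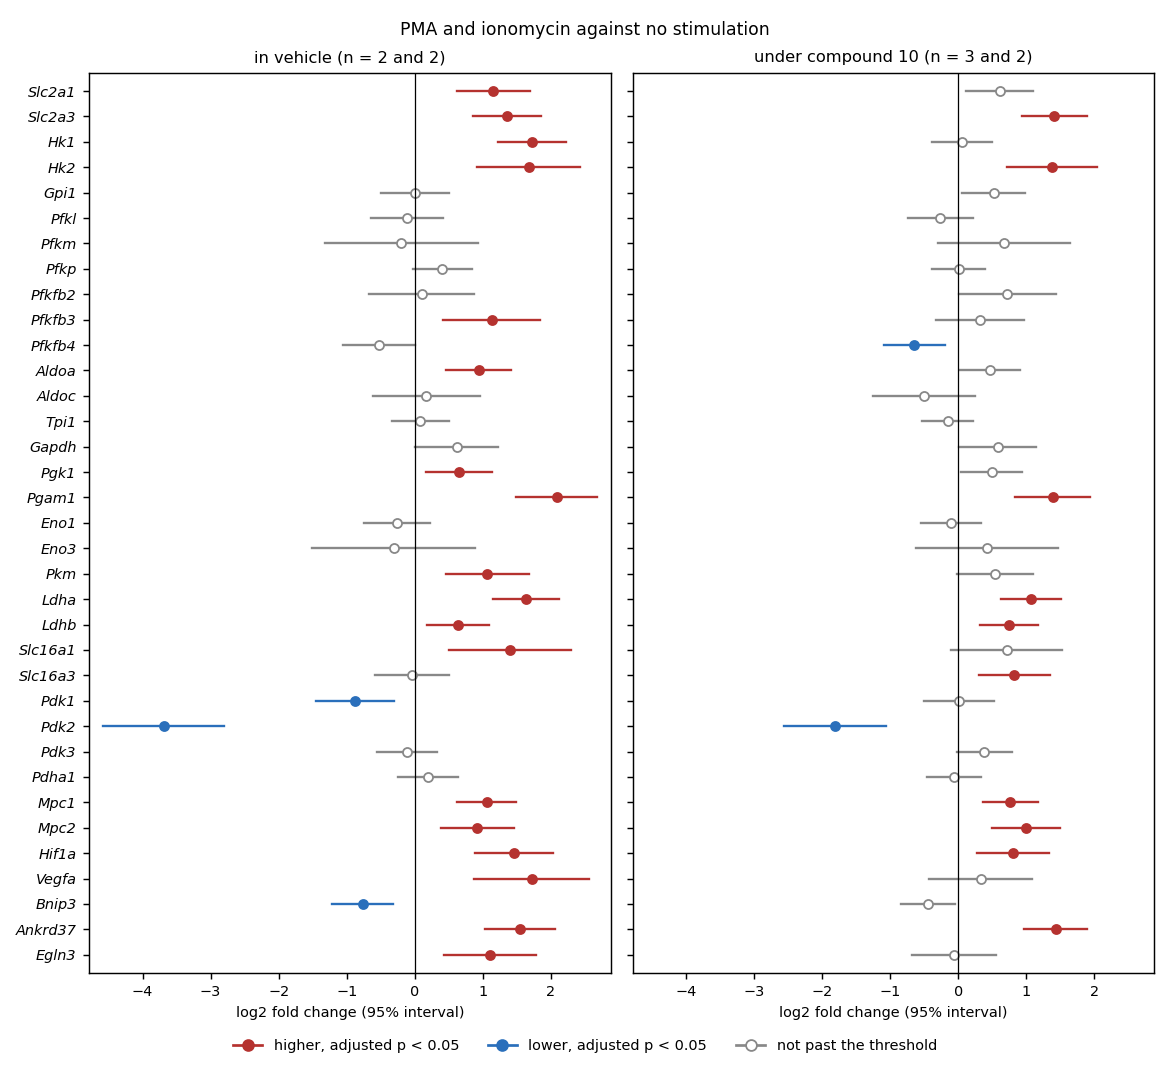
Log2 fold change with PMA and ionomycin against no stimulation for each of the 35 genes in vehicle (left, 2 and 2 libraries) and under compound 10 (right, 3 and 2 libraries), with 95% intervals from edgeR; filled points passed an adjusted p of 0.05. Pdk2 has the lowest value in both panels and Pgam1 the highest on the left, and Hk1 stands at 1.72 on the left and 0.05 on the right.

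Levels can be compared between genes only per length, as TPM. In stimulated vehicle the highest 4 members were Gapdh (2685 ± 740.3 TPM, SD, n = 2), Ldha (1579 ± 226), Pkm (1246 ± 441) and Aldoa (609 ± 116). Gapdh stood clear of Ldha, whereas the libraries of Ldha and Pkm overlapped. In stimulated cells with compound 10 the same 4 genes led, at 2027 ± 331, 952 ± 76.9, 636 ± 46.4 and 438 ± 30.5 TPM (SD, n = 3), each clear of the next. These 4 genes held between 79.7% and 88.9% of the summed TPM of the 17 enzyme genes from hexokinase to lactate dehydrogenase. That sum was 6013 and 3400.4 TPM in unstimulated vehicle, 4309 and 4064 with compound 10 alone, 8092 and 5827 after stimulation in vehicle and 5132, 4694 and 4702 after stimulation under compound 10. Both stimulated vehicle libraries exceeded all 3 stimulated libraries with compound 10, and the unstimulated vehicle libraries differed widely from each other. As CPM, the sum was 7425 and 6111 in unstimulated vehicle and 6677 and 5725 with compound 10 alone. After stimulation it was 14683 and 10960 CPM in vehicle and 9611, 8214 and 9781 with compound 10. On that scale every stimulated library lay above every unstimulated library, and the stimulated vehicle libraries again stood highest. No test was made of this sum on either scale. Isozymes with small shares in every library were Aldoc (0.199% to 0.630% of aldolase TPM) and Eno3 (0.232% to 1.00% of enolase TPM).

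Transcript forms were described without a test. Pkm has 2 annotated transcripts that use 1 or the other of a pair of mutually exclusive exons of 167 bases, which give the M1 and M2 forms of pyruvate kinase. They are shown because the share of the M1 form separated the compound 10 libraries from the vehicle libraries. The exons lie on the plus strand of chr9 (GRCm38), share 103 of 167 bases at matched positions (61.7%), and are printed from 5′ to 3′ with the bases that differ in capitals.
Pkm-202 exon (M1), chr9:59675029-59675195: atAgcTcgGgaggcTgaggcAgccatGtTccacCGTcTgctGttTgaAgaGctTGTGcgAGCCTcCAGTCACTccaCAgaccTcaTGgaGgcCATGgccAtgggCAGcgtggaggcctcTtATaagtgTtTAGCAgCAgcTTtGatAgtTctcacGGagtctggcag
Pkm-201 exon (M2), chr9:59675568-59675734: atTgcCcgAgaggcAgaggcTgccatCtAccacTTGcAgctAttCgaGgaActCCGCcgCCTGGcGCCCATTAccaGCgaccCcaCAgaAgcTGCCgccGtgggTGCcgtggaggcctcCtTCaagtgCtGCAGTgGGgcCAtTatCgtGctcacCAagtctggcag
Pkm-202 held 0.757% and 0.636% of Pkm TPM in unstimulated vehicle and 1.85% and 1.56% with compound 10 alone. In stimulated cells it held 0.650% and 0.990% in vehicle and 2.35%, 1.77% and 2.11% with compound 10. All 5 compound 10 libraries lay above all 4 vehicle libraries, although Pkm-201 was the main form in each, with at least 97.7%. The estimated counts of Pkm-202 were 126 to 547 per library.

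For Aldoa, the protein-coding transcript Aldoa-202 held 6.80% and 7.28% of the gene's TPM in unstimulated vehicle and 6.12% and 4.96% with compound 10 alone. After stimulation it held 20.7% and 21.8% in vehicle and 11.2%, 17.3% and 12.0% with compound 10. The stimulated libraries were all above the unstimulated ones, and those with compound 10 lay between. For Slc2a1, between 45.6% and 56.6% of TPM was assigned to a transcript annotated as subject to nonsense-mediated decay, with no separation of the groups.

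**Figure D4:**
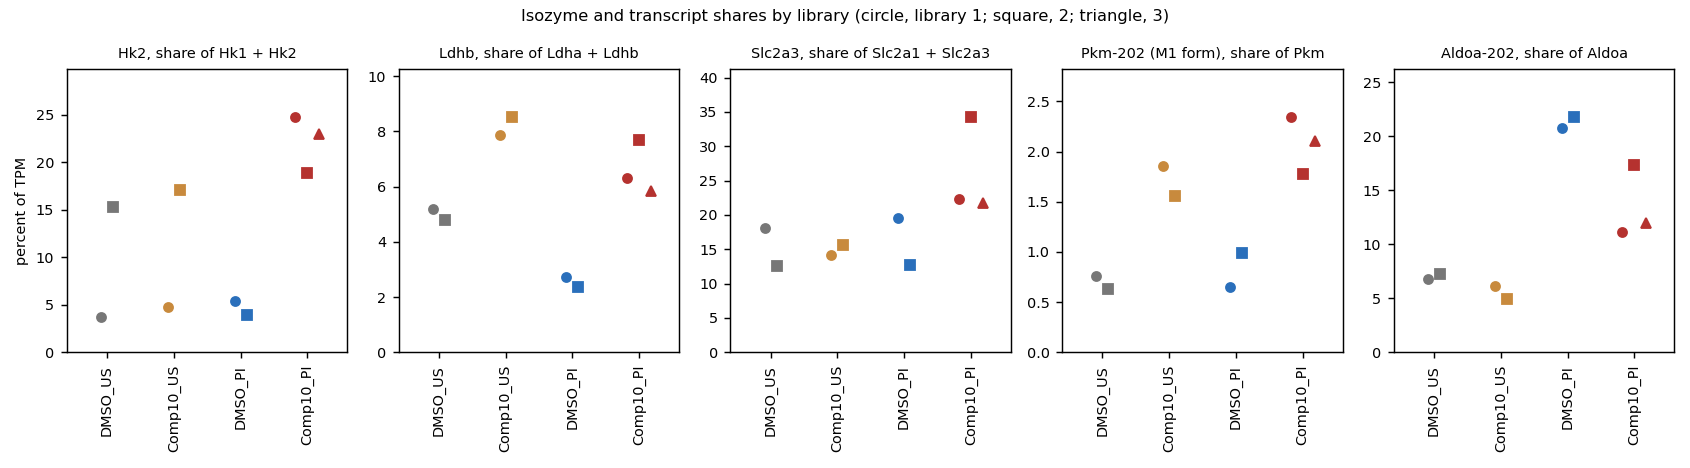
Share of TPM, in percent on linear axes from 0, held by Hk2 among the hexokinases, Ldhb among the lactate dehydrogenases, Slc2a3 among the glucose transporters, Pkm-202 within Pkm and Aldoa-202 within Aldoa; a point is 1 library (circle, square and triangle for library 1, 2 and 3). Pkm-202 stands at 1.56% or more in all compound 10 libraries and at 0.990% or less in all vehicle libraries.

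Promoter windows of 300 bases (250 before and 50 after a gene's start; RefSeq, GRCm38.p6) were found for 34 of the 35 genes, 52 windows in all, and none for Slc2a3. Each was searched on both strands for ACGTG, a form of the core that HIF-1 binds, CACGTG, the E-box bound by Myc and by the glucose-responsive Mlx factors, TGANTCA, the AP-1 site, and GGAAA, the NFAT core. ACGTG lies within CACGTG, which therefore counts for both and gives a match on each strand. ACGTG was in 26 of 52 windows (50%), against 19.6% of 32851 windows searched in all. The 26 windows belonged to 22 of 34 genes, and no share per gene was computed for all genes. CACGTG was in 8 of 52 (15.4%, against 7.15%), TGANTCA in 1 of 52 (1.92%, against 7.81%) and GGAAA in 30 of 52 (57.7%, against 61.3%). The windows below are those of genes whose levels moved in opposite directions with compound 10 in stimulated cells, Ldha and Pgam1 lower and Hk2 and Pdk1 higher. For a gene with several windows, the first with the most ACGTG matches is shown. They read 5′ to 3′ on the gene's strand, with ACGTG on either strand in capitals.
Ldha, chr7:46845554-46845853, plus strand: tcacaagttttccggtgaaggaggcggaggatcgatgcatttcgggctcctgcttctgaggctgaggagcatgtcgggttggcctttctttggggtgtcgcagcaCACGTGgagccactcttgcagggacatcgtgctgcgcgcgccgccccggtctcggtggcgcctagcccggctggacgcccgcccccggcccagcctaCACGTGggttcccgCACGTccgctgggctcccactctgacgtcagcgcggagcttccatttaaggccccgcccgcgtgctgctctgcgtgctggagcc
Pgam1, chr19:41911621-41911920, plus strand: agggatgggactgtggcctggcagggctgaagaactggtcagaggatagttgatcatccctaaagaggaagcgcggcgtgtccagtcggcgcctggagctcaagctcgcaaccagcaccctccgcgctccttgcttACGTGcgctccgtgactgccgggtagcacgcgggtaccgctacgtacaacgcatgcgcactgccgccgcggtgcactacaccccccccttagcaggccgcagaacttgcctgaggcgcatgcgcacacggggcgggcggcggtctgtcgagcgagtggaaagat
Hk2, chr6:82774405-82774704, minus strand: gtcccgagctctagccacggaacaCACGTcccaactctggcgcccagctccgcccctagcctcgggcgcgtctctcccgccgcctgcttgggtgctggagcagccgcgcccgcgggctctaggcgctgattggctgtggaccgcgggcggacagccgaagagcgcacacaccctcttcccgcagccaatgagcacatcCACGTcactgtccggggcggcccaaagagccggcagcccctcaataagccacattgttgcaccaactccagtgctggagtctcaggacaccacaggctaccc
Pdk1, chr2:71872974-71873273, plus strand: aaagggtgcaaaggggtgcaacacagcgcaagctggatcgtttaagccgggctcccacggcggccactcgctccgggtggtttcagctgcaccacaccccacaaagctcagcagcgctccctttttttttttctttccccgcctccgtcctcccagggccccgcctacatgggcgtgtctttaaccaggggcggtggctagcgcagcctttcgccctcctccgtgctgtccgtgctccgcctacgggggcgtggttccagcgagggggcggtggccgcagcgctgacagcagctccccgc
The Ldha window shown holds 2 CACGTG and 1 further ACGTG, and the other Ldha window (chr7:46846832-46847131) holds 0 of each. The Pgam1 window holds 1 ACGTG match, the Hk2 window 2 and the Pdk1 window shown 0. The other Pdk1 window also holds 0. A match is a run of letters, and no binding was measured.

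The calls of other genes of these pathways were not examined with libraries left out or under the alternative settings. These genes, from lists drawn up with earlier results of these data known, moved as follows. With compound 10 in stimulated cells 4 of 9 tested further glycolysis genes were higher and none was lower, where 23.0% of all genes were called (11.7% higher, 11.4% lower), the shares against which the next counts of this comparison are read. They were Bpgm (1.16, adjusted p 0.00199), which makes 2,3-bisphosphoglycerate, Emb (1.14, 0.00270), a chaperone of monocarboxylate transporters, and the transporter genes Slc2a9 (2.18, 0.00697) and Slc2a8 (1.16, 0.0134). Of 9 further pyruvate oxidation genes 2 were higher and 3 lower, among them Pck2, the mitochondrial phosphoenolpyruvate carboxykinase (2.00, adjusted p 0.00154), and Dld, the dihydrolipoamide dehydrogenase subunit (-0.90, 0.00621). Of 8 pentose phosphate genes 1 was called, G6pdx, the first enzyme of that pathway (-0.69, 0.00896). Txnip, which restrains glucose uptake, was the 1 of 5 glucose-sensing genes called (1.12, 0.0203), and it had fallen with stimulation in vehicle by a log2 fold change of -3.56 (adjusted p 3e-05).

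Arnt, the DNA-binding partner of Hif1a, was higher with compound 10 in both states (1.13 in stimulated cells, adjusted p 0.00193, and 1.70 in unstimulated cells, adjusted p 0.000971). It fell with stimulation in vehicle (-0.84, adjusted p 0.0124) and under compound 10 (-1.41, adjusted p 0.00025). Hif1an, the asparagine hydroxylase that inhibits HIF-1, was lower with compound 10 in stimulated cells (-0.57, adjusted p 0.0478), so 1 of 6 oxygen-sensing genes was called in each direction. Of 21 other hypoxia targets 6 were higher and 1 was lower there, including Narf (1.52, 0.00012), Ddit4, an inhibitor of mTORC1 (1.72, 0.000224), Gys1, glycogen synthase (1.84, 0.00272), and the mitophagy receptor gene Bnip3l (0.68, 0.0132). With stimulation in vehicle 6 of these 21 rose and 2 fell (28.1% of all genes were called), led by the lipid droplet gene Hilpda (2.16, adjusted p 1.43e-05) and Ero1l, an oxidase of the endoplasmic reticulum (1.64, adjusted p 5.22e-05), and under compound 10 stimulation raised 5 and lowered 3 (21.8% of all genes were called).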

How the data were processed

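Transcript estimated counts and TPM were deposited by the authors, 1 table per library. Per the submitters' processing notes, reads were handled with cutadapt and kallisto against mm10; tool versions and transcript annotation were not given in the sources used here. Per the labels' protocols, total RNA was made into libraries with Clontech SMART-seq. Estimated counts as deposited were summed per GENCODE M21 gene (108214 of 109617 transcripts matched) and rounded to whole numbers. Genes were tested with edgeR 4.0.16 (filterByExpr, TMM scaling, quasi-likelihood test on all 9 libraries) with Benjamini-Hochberg adjustment over 14040 genes and a threshold of 0.05. Levels are TMM-scaled CPM, and deposited TPM summed per gene where genes are compared. Library totals were 10669821 to 21852830. The 35 genes are named throughout; of each other list at most 4 tested genes with the smallest p per comparison were named. The genes and lists were chosen with earlier results of these data known. Alternatives covered filters, scaling, DESeq2 1.42.0, limma 3.58.1 on log2(TPM + 1), effective length as offset and protein-coding transcripts only. They also covered removal of ribosomal RNA and mitochondrially encoded genes, only the groups compared and members summed with near-identical copies. A replicate block and leaving out libraries were run as well. Gapdh has 84 near-identical copies, whose counts came to 1.231% of those of Gapdh and its copies together. Promoters came from RefSeq GRCm38.p6; windows on chromosome 18 were not used here.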

Additional observations from a re-analysis of the deposited data

Results flagged for a closer look

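The effect of compound 10 on Hk1 differed between stimulated and unstimulated cells, by an interaction log2 fold change of -1.67 ± 0.30 (SE; edgeR's quasi-likelihood test, Benjamini-Hochberg adjusted p 0.0248). That call was lost by limma (adjusted p 0.359), in an edgeR fit with a replicate block (adjusted p 0.0534) and without the ribosomal-RNA-rich vehicle libraries. It was also lost without DMSO_US 1, DMSO_US 2, Comp10_US 1, Comp10_US 2, DMSO_PI 1 or Comp10_PI 3. Hk1 was lower with compound 10 in all 3 stimulated libraries than in both stimulated vehicle libraries, and higher in both unstimulated libraries than in both unstimulated vehicle libraries.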

How the results depend on the processing

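No called value of the 35 genes changed direction under any alternative run. Of the calls, 3 of 16 for compound 10 in stimulated cells (Hk1, Pfkfb4 and Pdk1), 1 of 3 in unstimulated cells (Pfkfb4), 10 of 21 for stimulation in vehicle, 4 of 12 for stimulation under compound 10 and 0 of 1 for the interaction were kept with each library left out in turn. For compound 10 in stimulated cells, 16 members and 3234 genes were called. limma gave 2 and 897, leaving out both ribosomal-RNA-rich vehicle libraries 6 and 1827, and leaving out 1 library 5 to 13 and 1973 to 3167; the members were 10 with only the groups compared and 10 with a replicate block. In unstimulated cells the counts were 3 and 1030. No filter gave 5 and 1569, limma 1 and 131, and leaving out 1 library 1 to 6 and 174 to 1457; the members were 6 by DESeq2 and 6 with only the groups compared, and the genes 295 without the ribosomal-RNA-rich libraries. For stimulation in vehicle the counts were 21 and 3942, with limma 6 and 2062, without the ribosomal-RNA-rich libraries 10 and 1597, and without 1 library 12 to 21 and 2425 to 4347. For stimulation under compound 10 they were 12 and 3054, with limma 3 and 1760, and without 1 library 5 to 14 and 1506 to 3085. For the interaction they were 1 and 144, with limma 0 and 16, with the replicate block 0 and 43, without the ribosomal-RNA-rich libraries 0 and 13, and without 1 library 0 to 1 and 29 to 264; the genes were 512 with no filter, 239 with a strict filter, 452 by DESeq2 and 83 with effective length as offset. The interaction's 144 genes split into 59 higher and 85 lower, against 81 and 66 with upper-quartile scaling and 3 and 13 with limma. The median log2 fold change of all genes was 0.01 for the interaction and 0.11 with upper-quartile scaling, and, over the genes both tests used, -0.03 for stimulation in vehicle, where limma gave -0.20 and a split of 860 higher and 1202 lower. Fewer libraries give less power by construction; the cause of the other shifts was not tested. Whether library numbers pair the samples is not labelled. Correlations of the differences between library 1 and 2 across groups ran from -0.10 to 0.33. They were 0.33 between the vehicle groups and 0.23 between the compound 10 groups. With 1 such difference per group, these values cannot decide whether libraries share an animal or a batch. Leaving out the ribosomal-RNA-rich vehicle libraries, and summing members with near-identical copies, were alternatives chosen after seeing the data.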
